A study of Mus musculus with 2 samples.

Results

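Translation factors carry out the non-ribosomal steps of protein synthesis. Initiation factors (eIFs) load the initiator tRNA and the mRNA onto the small ribosomal subunit and find the start codon, and elongation factors (eEFs) deliver aminoacyl-tRNA and move the ribosome along the mRNA. Chromatin boundaries are the borders between neighbouring contact domains seen in Hi-C, a method that joins DNA ends lying close together in the nucleus. Active gene starts and sites of CTCF, the zinc finger protein that halts cohesin, are known to lie at many such borders in mammalian cells.

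The genes described here were taken by name from the protein-coding genes of GENCODE mouse release 21, as those called Eif followed by a digit or starting with Eef. The Eif2ak genes, which encode kinases of eIF2, were left out by the same rule. It took 65 genes, of which 64 lay on chromosomes 1 to 19 and X, out of 21755 protein-coding genes there. The remaining gene, Eif2s3y, is on chromosome Y, where the boundary list had 0 rows, and enters no share. By role, 53 of the 64 encode factors or close homologues, and 11 encode proteins that modify, bind or regulate a factor, such as the eIF4E-binding proteins. These genes, their roles and the other gene lists below were chosen with earlier results of these data known.

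In situ Hi-C had been made from 2 biological replicates of mature olfactory sensory neurons, the odour-detecting neurons of the nose, with 3000000 and 1500000 cells. The neurons came from the olfactory epithelium of adult OMP-GFP mice of strain 129P2/OlaHsd, of mixed sex and untreated, and were sorted by FACS on the GFP that marks olfactory marker protein expression. Both replicates form 1 group and were combined into 1 contact map before boundaries were called, so no value below has a replicate spread. The 8058 boundaries are 5 kb intervals on GRCm38, divided by the authors into 4092 Strong and 3966 Weak. Their strength is the authors' own score, with a median of 0.509 over the list, and is used here only to rank or divide boundaries within it. Neither the contact depth nor the sorted cell type could be checked, because the list holds no read counts and no expression. Shares are given with 95% exact Clopper-Pearson intervals, which cover counting error only, and no p-value is given, since genes of a list are not replicates.

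Translation factor genes lay near boundaries more often than other coding genes did. A boundary was found within 20 kb of the transcription start site (TSS) of 29 of 64 members (45.3%, interval 32.8 to 58.3%), against 4580 of 21691 other protein-coding genes (21.1%, interval 20.6 to 21.7%). The ratio of the shares was 2.15. Distance was measured between the 5 kb bin of the TSS and that of the boundary, so a distance of 0 means the same bin. The nearest boundary lay a median of 25.0 kb from the TSS of members (quartiles 10.0 and 55.0 kb) and 60 kb from that of other coding genes (quartiles 25.0 and 105 kb).

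The share of members exceeded that of other coding genes at every distance from 0 to 100 kb. The boundary shared the bin of the TSS in 7 of 64 members (10.9%, interval 4.51 to 21.2%), against 3.13% of other coding genes, a ratio of 3.49. Within 10 kb there were 22 members (34.4%, interval 22.9 to 47.3%), against 12.8%, a ratio of 2.69. The ratio for the bin of the TSS rests on 7 members, and differences between ratios were not tested. At the other end, 6 members (9.38%) had no boundary within 100 kb, against 26.5% of other coding genes, and the farthest member lay 155 kb away. The 29 members near a boundary had 29 different boundaries, so no member was counted through a boundary of another. Over all distances, the 1 boundary that served a pair of members was that nearest to both Eif4g1 and Eef1akmt4.

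**Figure D1:**
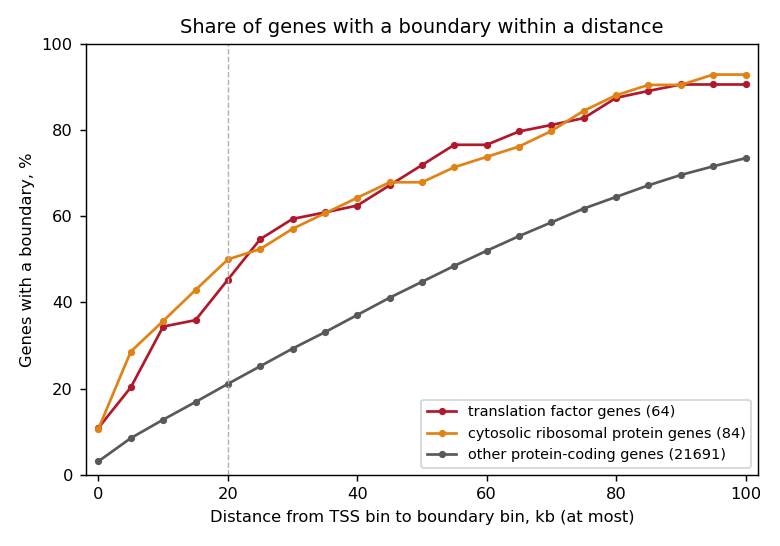
Share of genes (vertical axis, %) with a boundary at or below each distance from the TSS (horizontal axis, kb) for 64 translation factor genes, 84 cytosolic ribosomal protein genes and 21691 other protein-coding genes, with a dashed line at 20 kb. At 20 kb the shares are 45.3%, 50% and 21.1%, and the line of the other coding genes stays below both lists from 0 to 100 kb.

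Boundaries near members had higher values of the authors' score, but among genes near a boundary the intervals for members included the values of other coding genes in all 3 measures given. Strong boundaries were the nearest ones for 22 of 64 members within 20 kb (34.4%, interval 22.9 to 47.3%), against 13.7% of other coding genes, a share that also counts how often any boundary was near. Among genes with a boundary within 20 kb, it was Strong for 22 of 29 members (75.9%, interval 56.5 to 89.7%) and for 64.7% of the others. The median strength of these boundaries was 0.981 for members (95% interval from order statistics 0.645 to 1.15, quartiles 0.526 and 1.17, range 0.261 to 3.94) and 0.681 for other coding genes (quartiles 0.387 and 1.08). The top 25% of strengths in the list, 0.928 and over, held the boundaries of 15 of the 29 members (51.7%, interval 32.5 to 70.6%), against 33.1% for other coding genes near a boundary.

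**Figure D2:**
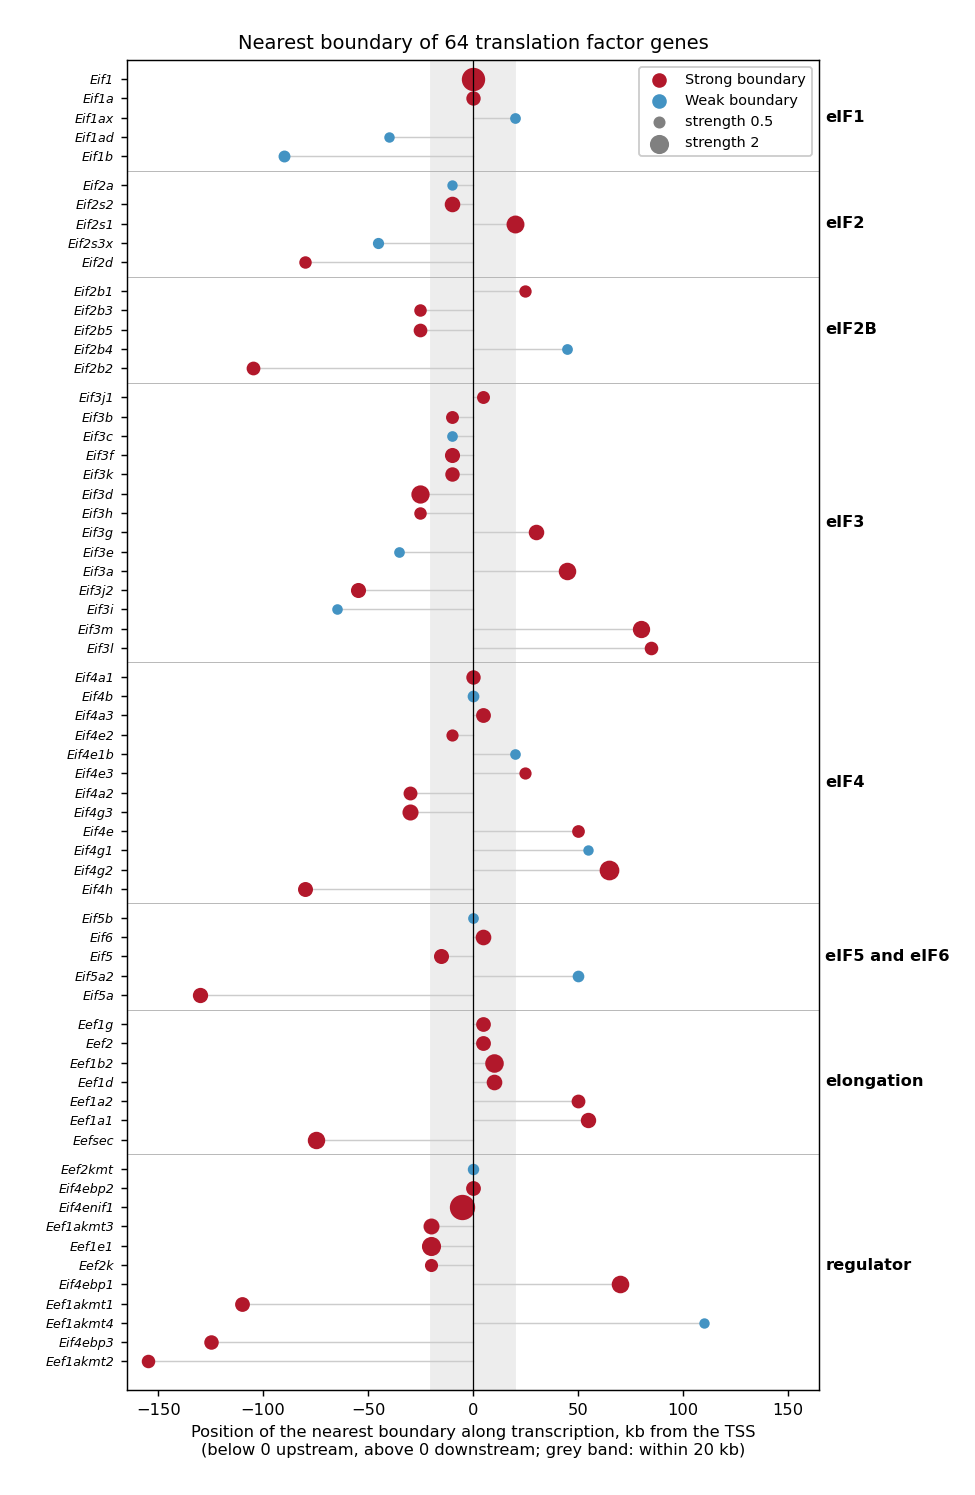
Position of the nearest boundary along the direction of transcription (horizontal axis, kb from the TSS) for each of the 64 members, grouped by role and sorted by distance. Point size follows boundary strength, red points are Strong and blue points Weak boundaries, and the grey band marks 20 kb. Eif1 and Eif4enif1 have the largest points, and no eIF2B gene falls in the band.

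Genes of eIF1 and eIF1A had a boundary within 20 kb in 3 of 5 cases, against 21.1% of other coding genes. Both factors hold the scanning small subunit open and reject wrong start codons. Eif1 had a Strong boundary of strength 3.26, the 5th strongest of the 8058. It occupied chromosome 11 from 100315001 to 100320000 (GRCm38), and the annotation places the TSS of Eif1 at 100319885, 115 bases before the end of that interval. The Eif1 gene is 2.21 kb long and a UTR of Eif1 was the sole annotated part of a protein-coding gene in the interval. Eif1a, an eIF1A gene, also had a Strong boundary in the bin of its TSS, with a strength of 0.911. Eif1ax, the X-linked eIF1A gene, had a Weak boundary of 0.312 at 20 kb downstream. The paralogue Eif1b lay 90 kb from a Weak boundary of 0.485, and Eif1ad, whose protein carries an eIF1A domain, lay 40 kb from a Weak one of 0.274. The Eif1 boundary was thus far stronger than the others of this group.

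In the eIF2 group, 3 of 5 genes had a boundary within 20 kb, against 21.1% of other coding genes. It was Strong for 2 of the 5, Eif2s1 and Eif2s2, against 13.7% of other coding genes. Eif2s1 encodes the alpha subunit, the target of the stress-activated eIF2 kinases, and its boundary of 1.69 lay 20 kb downstream, over a coding exon and UTR of Eif2s1 itself. Eif2s2, the beta subunit gene, had a boundary of 1.15 at 10 kb upstream. The gamma subunit gene Eif2s3x lay 45 kb from a Weak boundary of 0.377. Eif2a and Eif2d encode factors that can bring tRNA to the ribosome without eIF2. Eif2a had a Weak boundary of 0.261 at 10 kb upstream, the lowest strength among the 29, and Eif2d had none nearer than 80 kb.

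None of the 5 genes of eIF2B, the exchange factor that recharges eIF2 with GTP, had a boundary within 20 kb. The share within 20 kb was 21.1% in other coding genes. Eif2b1, Eif2b3 and Eif2b5 lay just outside that limit at 25 kb, each from a Strong boundary (0.55, 0.576 and 0.783). Eif2b4 lay 45 kb from a Weak boundary of 0.315 and Eif2b2 lay 105 kb from a Strong one of 0.798. With 25 kb as the limit, 35 of 64 members (54.7%) and 25.2% of other coding genes would have had a boundary. Besides the 3 eIF2B genes, the members at 25 kb were Eif3d (1.78), Eif3h (0.574) and Eif4e3 (0.53), all with Strong boundaries. Those at 20 kb, just inside, were Eef1e1 (1.99), Eif2s1 (1.69), Eef1akmt3 (1.24), Eef2k (0.681), Eif1ax (0.312) and Eif4e1b (0.299).

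Subunit genes of eIF3, the large scaffold on the small ribosomal subunit, had a boundary within 20 kb in 5 of 14 cases. For other coding genes the share was 21.1%. Eif3f (1.05), Eif3k (0.927) and Eif3b (0.645) each had a Strong boundary 10 kb upstream of the TSS, and Eif3c a Weak one of 0.303 at the same distance and side. Eif3j1 had a Strong boundary of 0.649 at 5 kb downstream, in an intron of the gene. Its near copy Eif3j2 lay 55 kb from a Strong boundary of 1.05. The other 8 subunit genes lay 25 to 85 kb away, with Eif3d, Eif3a (1.59, 45 kb) and Eif3m (1.54, 80 kb) having the strongest of those boundaries. The median distance in the group was 27.5 kb.

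The eIF4 genes encode the cap-binding protein, its RNA helicases and the scaffold that joins them to the ribosome. A boundary lay within 20 kb in 5 of 12 cases, against 21.1% of other coding genes. The helicase genes differed among themselves. Eif4a1 had a Strong boundary of 0.918 in the bin of its TSS, and Eif4a3, whose product is a core of the exon junction complex, had a Strong one of 1.00 at 5 kb downstream. Eif4a2, the helicase gene known for its expression in brain, lay 30 kb from a Strong boundary of 0.821. Eif4b, a helicase cofactor gene, had a Weak boundary of 0.454 in the bin of its TSS, while that of the related cofactor gene Eif4h was 80 kb away with a strength of 1.03.

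Cap-binding protein genes were likewise mixed. Eif4e, the main cap-binding protein gene, lay 50 kb from a Strong boundary of 0.614. Eif4e2, whose product represses translation, had a Strong boundary of 0.526 at 10 kb upstream that covered a UTR of Chrnd and a coding exon of Chrng, both acetylcholine receptor genes. Eif4e1b had a Weak one of 0.299 at 20 kb downstream, and Eif4e3 a Strong one at 25 kb. The scaffold genes Eif4g1, Eif4g2 and Eif4g3 lay 55, 65 and 30 kb from theirs. The boundary nearest to Eif4g2, with a strength of 2.16, was the strongest among the members over 20 kb away, whose median strength was 0.783 over 35 genes.

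The eIF5 and eIF6 group held 5 genes, 3 of them with a boundary within 20 kb, against 21.1% of other coding genes. Eif5, the gene of the eIF2 GTPase activator, had a Strong boundary of 1.04 at 15 kb upstream. Eif5b, which encodes the GTPase of subunit joining, had a Weak one of 0.309 in the bin of its TSS. Eif6, whose product keeps the large ribosomal subunit from joining early, had a Strong one of 1.17 at 5 kb downstream, inside the gene. Eif5a and Eif5a2 encode the hypusine-bearing factor that helps stalled ribosomes, and lay 130 and 50 kb from a boundary.

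Elongation factor genes had a Strong boundary within 20 kb in 4 of 7 cases, against 13.7% of other coding genes. Each of the 4 boundaries lay downstream of the TSS, as for 37.4% of other coding genes near a boundary. A preference for a side was not tested with so few genes. Eef1b2, Eef1d and Eef1g encode the exchange complex that reloads eEF1A with GTP, and all 3 were among the 4. Eef1b2 had a boundary of 1.85 at 10 kb, chromosome 1 from 63185001 to 63190000, past the end of its 3.66 kb gene. Eef1d had a boundary of 1.17 at 10 kb and Eef1g of 0.981 at 5 kb, both over coding exons of the gene itself. Eef2, the translocase gene, had a boundary of 1.00 at 5 kb, over exons of Eef2 and of the neighbouring genes Dapk3 and 4930442H23Rik. The eEF1A genes were farther away, Eef1a1 at 55 kb (1.11) and Eef1a2, the form of neurons and muscle, at 50 kb (0.804). Eefsec, the selenocysteine elongation factor gene, lay 75 kb from a boundary of 1.57.

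Among the 11 genes of proteins that act on a factor, 6 had a boundary within 20 kb, against 21.1% of other coding genes. Each of the 6 boundaries lay upstream of the TSS or in its bin, as for 62.6% of other coding genes near a boundary. With 6 genes, a preference for a side was not tested. Eif4enif1 encodes 4E-T, which binds eIF4E and carries it into the nucleus. Its boundary had a strength of 3.94, the 3rd strongest in the list, and lay 5 kb upstream on chromosome 11 from 3195001 to 3200000. That interval lay in an intron of Drg1, between the TSS of Eif4enif1 on the plus strand and that of Sfi1 on the minus strand, each 5 kb away. Whether the 129P2/OlaHsd genome departs from the reference sequence at Sfi1, and so alters this strength, was not tested. Eif4ebp2, a repressor of eIF4E, had a Strong boundary of 0.995 in the bin of its TSS, whereas its paralogues Eif4ebp1 and Eif4ebp3 lay 70 and 125 kb away.

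Enzymes that modify elongation factors were divided in the same way. Eef2kmt, the eEF2 lysine methyltransferase gene, had a Weak boundary of 0.41 in the bin of its TSS, and Eef2k, the eEF2 kinase gene, a Strong one of 0.681 at 20 kb upstream. Eef1akmt3 had a Strong boundary of 1.24 at 20 kb upstream, in the bin that held the TSSs of Cdk4 and March9. The other eEF1A methyltransferase genes, Eef1akmt1, Eef1akmt2 and Eef1akmt4, lay 110, 155 and 110 kb away. Eef1e1, whose product belongs to the multi-tRNA synthetase complex, had a Strong boundary of 1.99 at 20 kb upstream, with no protein-coding gene in the interval.

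**Figure D3:**
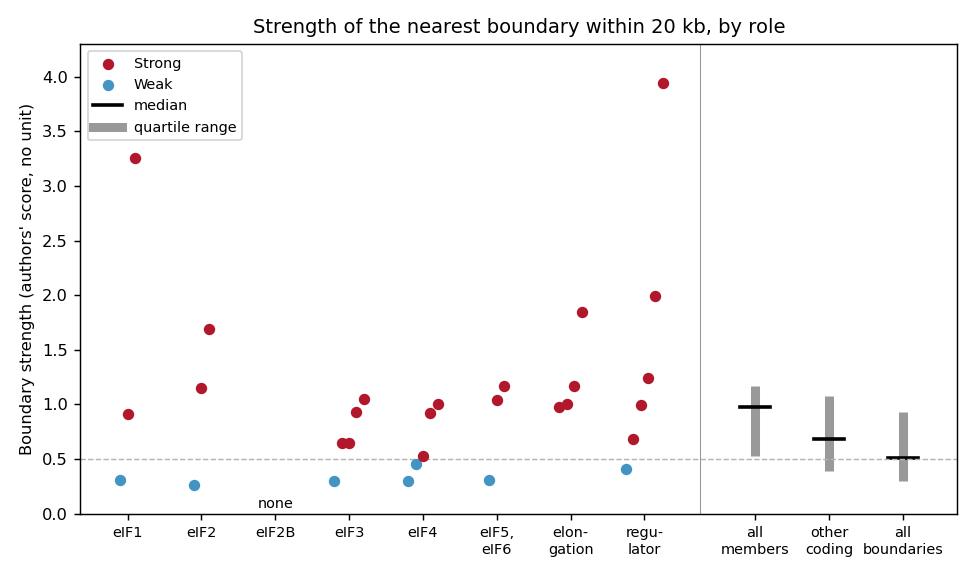
Boundary strength (vertical axis, authors' score without a unit) of the nearest boundary for each of the 29 members with a boundary within 20 kb, by role, with medians and quartile ranges at the right for the members, for other protein-coding genes near a boundary and for all 8058 boundaries. The medians at the right are 0.981, 0.681 and 0.509, and the dashed line at 0.5 divides Weak from Strong.

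The sides of the boundaries were divided much as for other coding genes. Of the 29 boundaries, 12 lay upstream of the TSS, 7 in its bin and 10 downstream. Upstream or in the bin were 19 of 29 (65.5%, interval 45.7 to 82.1%), against 62.6% for other coding genes near a boundary. A boundary in the bin of the TSS made up 24.1% of the 29 and 14.8% of the others, and the interval for the members, 10.3 to 43.5%, includes the share of the other genes. The boundary overlapped the member's own gene in 14 of 29 cases (48.3%, interval 29.4 to 67.5%), against 39.5%. Counted over whole genes, 15 of 64 members (23.4%, interval 13.8 to 35.7%) had a boundary in the gene body, against 15.8%. Median gene lengths were 15.8 and 17.4 kb, but the upper quartiles differed more, at 25.2 kb for members and 45.6 kb for other coding genes. Both intervals include the shares of other coding genes. Gene ends differed less than gene starts, since 19 members (29.7%, interval 18.9 to 42.4%) had a boundary within 20 kb of the 3′ end, against 22.2%.

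The member was the coding gene nearest to its boundary, or tied for it, in 22 of the 29 cases (75.9%), close to the 74.6% for other coding genes. In the remaining 7 another coding TSS was nearer. These were Cdk4 and March9 for Eef1akmt3, Naprt for Eef1d, 4930442H23Rik and Dapk3 for Eef2, Gm5737 for Eef2k, Apobr for Eif3c, Tspan17 for Eif4e1b and Chrng for Eif4e2. Which of the genes at such a boundary it belongs to was not tested. An opposite-strand coding TSS within 1 kb upstream, giving a divergent pair without overlap, was found in 7 of 64 members (10.9%, interval 4.51 to 21.2%), against 6.83%. Among the members near a boundary there were 5 such pairs of 29 (17.2%, interval 5.85 to 35.8%), against 8.8% of other coding genes near a boundary. They were Eif1a with Tmed7, Eif2s1 with Atp6v1d, Eif3k with Map4k1, Eif5b with Txndc9 and Eef1d with Tigd5. That rule leaves out pairs whose starts overlap, such as Eef1b2 with Ndufs1 (8 bases), Eif2a with Serp1 (71 bases) and Eef1akmt3 with Mettl1 (99 bases). With an opposite-strand start on either side, an alternative chosen after seeing the data, the counts were 8 of 29 members (27.6%, interval 12.7 to 47.2%), against 15.0% of other coding genes near a boundary.

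Promoters of members were rich in CpG. In the window from 250 bases before to 50 bases from the TSS, the ratio of observed to expected CpG had a median of 0.786 in members and 0.529 in other coding genes, and GC content had medians of 60.5% and 55.0%. Starts with a boundary in the same bin are shown because there the interval and the promoter coincide, for 6 of the 7 such members (Eif1a is named only). Each runs from 40 bases before the TSS through the first 25 transcribed bases on the gene's strand (GRCm38.p6, GENCODE TSS), with CpG dinucleotides in capitals. The windows are chr11:100319845-100319909 for Eif1 on the plus strand, chr11:69672399-69672463 for Eif4a1 on the minus strand, chr15:102073733-102073797 for Eif4b on the plus strand, chr1:37997970-37998034 for Eif5b on the plus strand, chr10:61452637-61452701 for Eif4ebp2 on the minus strand and chr16:5255959-5256023 for Eef2kmt on the minus strand.
Eif1: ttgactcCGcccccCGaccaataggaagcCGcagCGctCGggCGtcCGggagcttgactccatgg
Eif4a1: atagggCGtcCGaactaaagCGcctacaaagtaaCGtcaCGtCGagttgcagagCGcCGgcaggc
Eif4b: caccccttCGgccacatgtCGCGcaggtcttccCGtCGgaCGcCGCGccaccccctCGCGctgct
Eif5b: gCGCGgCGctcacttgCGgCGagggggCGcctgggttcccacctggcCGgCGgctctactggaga
Eif4ebp2: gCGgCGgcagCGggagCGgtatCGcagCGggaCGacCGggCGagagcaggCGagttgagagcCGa
Eef2kmt: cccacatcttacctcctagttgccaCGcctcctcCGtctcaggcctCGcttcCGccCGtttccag
In that order the windows held 7, 8, 10, 8, 11 and 5 CpG dinucleotides, fewest at Eef2kmt. No such counts are given for other starts, so a link between these counts and boundaries was not tested.

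Most members, 54 of 64, had promoters in the upper 2 quartiles of the CpG ratio, and in both quartiles a larger share of members than of other coding genes had a boundary. In the highest quartile of the CpG ratio, 17 of 29 members (58.6%, interval 38.9 to 76.5%) had a boundary within 20 kb, against 25.7% of other coding genes. In the next, 10 of 25 members (40%, interval 21.1 to 61.3%) had a boundary, against 23.9%. The lower quartiles held only 10 members, too few for a comparison. In the second lowest, 1 of 9 members had a boundary (11.1%, interval 0.281 to 48.2%), against 18.9% of other coding genes. In the lowest, the single member, Eif4e1b, had a boundary, against 16.0%. Gene density was also set beside the shares. Members had a median of 10 other coding TSSs within 250 kb and other coding genes 8. By quartile of that density, from low to high, 25.0% of 8, 35.3% of 17, 61.1% of 18 and 47.6% of 21 members had a boundary. Shares of other coding genes were 19%, 22.9%, 21.8% and 20.4%. In the lower 2 quartiles the intervals for members, 3.19 to 65.1% and 14.2 to 61.7%, include the shares of other coding genes. Whether expression level, which the list does not hold, moves with these shares was not tested.

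**Figure D4:**
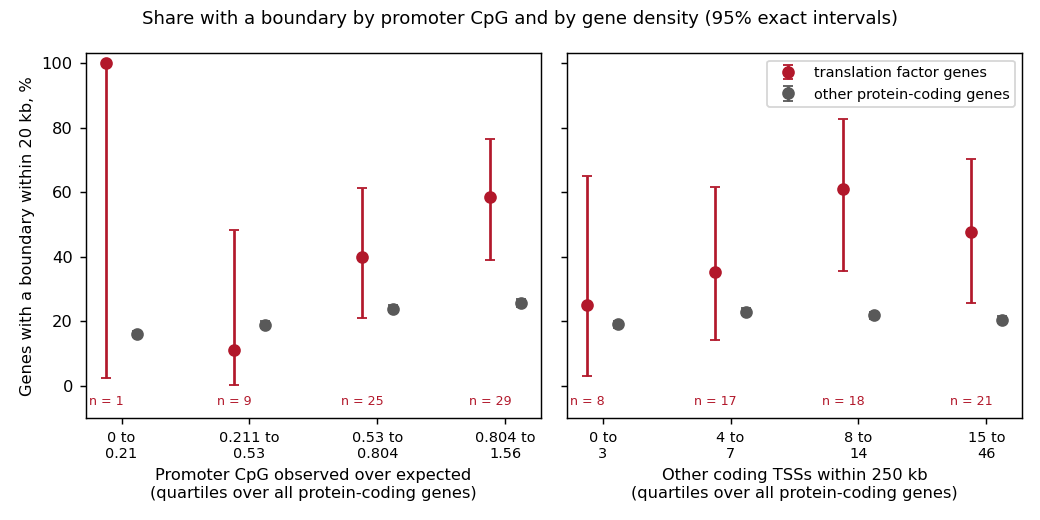
Share of genes with a boundary within 20 kb (vertical axis, %) by quartile of promoter CpG ratio (left) and of the number of other coding TSSs within 250 kb (right), for translation factor genes (red, numbers below) and other protein-coding genes (grey), with 95% exact Clopper-Pearson intervals, which for the grey points are no wider than the symbol. In the highest CpG quartile the shares are 58.6% and 25.7%, and the lowest CpG quartile holds a single member.

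Matches to the 14-letter core consensus of CTCF, searched without mismatch on both strands, lay within 20 kb of 12 of the 29 boundaries of members (41.4%, interval 23.5 to 61.1%). The share was 28.3% for boundaries nearest to other coding genes within 20 kb, 21.9% for all boundaries and 10.1% for all 5 kb bins without undetermined bases. Of the 15 matches, 2 lay in the boundary bin, 6 on either side pointing away from it and 7 pointing toward it. The boundaries at Eif1 and Eif4enif1, the strongest of the set, had no match in these windows, which says nothing on the factor itself. At Eef1b2, 3 matches on the plus strand lay within 5 kb of the boundary, in the bin before it. They stand below with matches of other Strong boundaries, each on its own strand with 10 flanking bases and the core in capitals (GRCm38.p6).
Eef1b2, chr1:63181163-63181176: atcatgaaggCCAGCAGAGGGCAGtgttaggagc
Eef1b2, chr1:63181273-63181286: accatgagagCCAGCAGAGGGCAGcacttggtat
Eef1b2, chr1:63182826-63182839: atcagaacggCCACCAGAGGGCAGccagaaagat
Eif4a3, chr11:119305511-119305524, plus strand: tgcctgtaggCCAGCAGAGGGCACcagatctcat
Eef1e1, chr13:38668721-38668734, minus strand: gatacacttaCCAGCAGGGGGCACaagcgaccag
Eef1d, chr15:75884295-75884308, minus strand: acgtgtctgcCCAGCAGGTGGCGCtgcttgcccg
Eif3f, chr7:108934150-108934163, minus strand: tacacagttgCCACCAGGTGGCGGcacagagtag
The matches at Eif4a3, Eef1e1 and Eef1d pointed away from the boundary, and those at Eef1b2 and Eif3f toward it.

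Many mRNAs of the translation machinery begin with a C and a run of pyrimidines, the terminal oligopyrimidine (TOP) motif, through which their translation is tied to nutrient signals. A transcript start with C followed by at least 4 bases that are C or T was annotated in 9 of 64 members (14.1%, interval 6.64 to 25.0%), in 26.2% of 84 cytosolic ribosomal protein genes and in 5.13% of other coding genes. Of the 9 genes with it, 4 had a boundary within 20 kb (44.4%, interval 13.7 to 78.8%), as had 25 of the 55 without it (45.5%, interval 32.0 to 59.4%). With so few genes a large difference in either direction would not have been detectable. Annotated starts can be off by some bases, so a gene without a match may still have the motif. Starts of members with a boundary and of members without are set side by side, from 40 bases before the transcript start through its first 25 bases, with the C and its run in capitals (GRCm38.p6).
Eef1b2, boundary at 10 kb, chr1:63177090-63177154: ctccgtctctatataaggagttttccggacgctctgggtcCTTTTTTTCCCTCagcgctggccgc
Eef1d, boundary at 10 kb, chr15:75909282-75909346, minus strand: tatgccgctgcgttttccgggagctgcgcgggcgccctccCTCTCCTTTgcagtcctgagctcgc
Eif3f, boundary at 10 kb, chr7:108934377-108934441: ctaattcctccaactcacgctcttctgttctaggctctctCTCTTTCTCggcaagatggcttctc
Eif2s3x, boundary at 45 kb, chrX:94212627-94212691, minus strand: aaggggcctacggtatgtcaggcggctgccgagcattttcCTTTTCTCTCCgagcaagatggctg
Eif3m, boundary at 80 kb, chr2:105017019-105017083, minus strand: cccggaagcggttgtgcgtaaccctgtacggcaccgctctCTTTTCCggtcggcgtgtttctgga
The runs were 13, 9, 9, 11 and 7 bases long.

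Other lists of the translation machinery gave a mixed picture beside the 45.3% of members and the 21.1% of other coding genes. Cytosolic ribosomal protein genes had a boundary within 20 kb in 42 of 84 cases (50%, interval 38.9 to 61.1%), 29 of them Strong, with a median strength of 0.758. Their strongest were at Rps23 (3.03), Rps24 (2.74) and Rps15a (2.42). The boundary lay in the bin of the TSS in 10.7% of them, against 10.9% of translation factor genes. Cytosolic aminoacyl-tRNA synthetase genes, which encode the enzymes that charge tRNA, had a boundary in 6 of 22 cases (27.3%). Each of the 6 was Strong and upstream, led by Qars (1.38), Farsb (1.33) and Nars (1.23). Among other coding genes near a boundary, it was Strong for 64.7% and upstream for 47.7%. Genes of termination, ribosome recycling and reinitiation had one in 3 of 9 cases (Abce1 0.789, Mcts2 0.49 and Hbs1l 0.42). The TOR pathway, which controls eIF4E through its binding proteins, had one in 3 of 12 cases (Mtor 1.23, Tsc1 0.891 and Rictor 0.833).

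Of the poly(A) binding proteins and their partners, 1 of 10 genes had a boundary within 20 kb (interval 0.253 to 44.5%), Pdcd4 with a Weak one of 0.326. Genes of the eIF2 kinases, which phosphorylate Eif2s1, had none in 4 cases (interval 0 to 60.2%). Mitochondrial translation factors had none in 9 cases (interval 0 to 33.6%). The genes of hypusine synthesis, which modify eIF5A, both had a Weak boundary, Dhps (0.354, 5 kb) and Dohh (0.292, in the bin of the TSS). For hypusine synthesis the interval was 15.8 to 100%. Each interval in this paragraph includes the 21.1% of other coding genes. These lists are small, and their differences from translation factor genes were not tested.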

How the data were processed

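In situ Hi-C of 2 replicates was digested with DpnII for 960 min and ligated for 240 min after 10 min of formaldehyde, per the labels' protocols. Boundaries were called on the combined contact map, on GRCm38 per the submitters' processing notes. The strength score and the class of each 5 kb interval are as deposited by the authors, and all Strong boundaries score 0.5 or more. Not given in the sources used here are the mapper, the boundary caller and the definition of the score. Contact depth is unknown.

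Genes, exons and start sites came from GENCODE mouse release 21 (GRCm38.p6), with the TSS at the 5′ end of the gene record. Each TSS was joined to its nearest boundary by 5 kb bins in Python 3.11.15, with intervals from SciPy 1.17.1. This join was tested on simulated data in which the true nearest boundary was known. The other simulated boundaries lay far from the TSS, so ties and close competitors were not covered. Both replicates form 1 pooled list, so there was no replicate error, no test across samples and no p-value. The members, the roles and the other gene lists were chosen with earlier results of these data known. Every member with a boundary within 20 kb, those at 25 kb and the 5 farthest were named by rule, and of other lists the genes with the 3 strongest boundaries within 20 kb. Further members were named beside their role group. Alternatives changed the window, the boundary class, the TSS, the distance measure, the chromosomes and the genes included.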

Additional observations from a re-analysis of the deposited data

How the results depend on the processing

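Of 38 values recomputed under an alternative, 25 fell inside the counting interval of the main value and 13 outside it. This split depends on group size, since the interval of the main share was 32.8 to 58.3% for members and 20.6 to 21.7% for other coding genes. The nearest boundary within 20 kb was also the strongest there for every member, so taking the strongest could not change their median. The share of members with a boundary was 62.5% within 40 kb and 23.4% for boundaries in the top 25% of strength. For other coding genes the share was 12.8% within 10 kb, 37.1% within 40 kb, 13.7% for Strong boundaries and 6.99% for the top 25%. It was 23.4% from the nearest start of any coding transcript, 19.1% by distance to the interval's midpoint and 21.8% without olfactory and vomeronasal receptor genes. Counting opposite-strand starts on either side gave 10.9% for all other coding genes and 15.0% for those near a boundary. The median distance of members was 47.5 kb to Strong boundaries alone, and 48.4% of members had a Strong boundary within 40 kb. In each setting applied to both sets of genes the share was higher in members, by a ratio of 1.69 (40 kb) to 3.35 (top 25%). Leaving out a replicate was impossible with boundaries called on both together. No paired analysis was possible because there is 1 group and 1 pooled list. Resolution limits positions to 5 kb bins. Roles held only 5 to 14 genes, so their counts are given without intervals and differences between roles were not tested.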
